A study of Rattus norvegicus with 10 samples.

Results

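The genes described here are the 34 markers of the oligodendrocyte lineage and of myelin in rat cerebral cortex. They were taken by gene symbol from the deposited table of 32623 genes, where each of the 34 had 1 row. They were sorted by textbook role into 6 stages: 4 precursor genes, 5 lineage transcription factors, 5 genes of differentiating cells, 11 myelin and membrane proteins of oligodendrocytes, 5 other genes of mature cells, and 4 enzymes of myelin lipid and acetate metabolism. The study examined whether electroacupuncture (EA) that opens the blood brain barrier alters the cortical transcriptome. The EA group was 5 libraries from adult male Sprague-Dawley rats stimulated for 40 min at GV20 and GV26, 2 points on the head, with a 3 mA current alternating between 2 and 100 Hz. The control group was 5 libraries from rats of the same kind that were bound for 40 min without EA. All rats of both groups were perfused with saline before the cortex was stripped. The labels number the libraries 1 to 5 in each group and do not state outright that each came from its own rat, so p-values measure the spread between these libraries.

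Oligodendrocytes wrap axons of the central nervous system in myelin, a stack of compacted membrane that speeds conduction. They arise from dividing precursors that carry the receptor for platelet-derived growth factor, pass through a short committed stage, and then switch on the genes of myelin proteins and galactolipids under the factors Olig1, Olig2, Sox10 and Myrf. Cerebral cortex holds myelinated axons mostly in its deep layers and next to the white matter, so the white matter taken along with the cortex adds to the myelin RNA of a sample. In bulk tissue, fewer cells of a type and less RNA per cell cannot be told apart.

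In the EA group 31 of the 34 genes had a lower estimate than in the control group, against 50.5% of the 15169 genes tested, and none passed the test of edgeR, which models the counts across all genes. The median log2 fold change of EA over control was -0.15 over the 34 genes and -0.00 over all genes tested. A gene counted as called at a Benjamini-Hochberg adjusted p under 0.05 with a fold change above 1.2. By edgeR 0 of the 34 were called, where 0.0198% of all genes tested were. DESeq2 called 1 of them lower, Hapln2, where it called 0.600% of all genes tested lower. At an unadjusted p under 0.05 edgeR gave 10 of 34 lower, against 7.15% of all genes tested, and 0 higher, against 6.59%. The 10 were Cspg4, Olig1, Myrf, Gpr17, Mbp, Mobp, Cnp, Pllp, Hapln2 and Gsn. For 1 gene, Pllp, every EA library lay below every control library, which held for 2.25% of all genes tested. For 0 genes did every EA library lie above every control library, against 0.850%. Such counts describe the 34 genes, which were chosen with earlier results of these data known.

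Libraries held 47843590 to 60941939 counts in the EA group and 55223193 to 61707722 in the control group (exact two-sided permutation p = 0.246). EA 3 was the shallowest of the 10 libraries and had the highest share of FPKM (fragments per kilobase of transcript, scaled to the mapped fragments of the library) on mitochondrial genes, 46.7%. EA 2 and EA 5 stood apart by the structural RNAs Rn7sl1 and Rpph1, which summed to 221.6 and 354.2 FPKM there, against 7.13 to 14.9 FPKM in the control libraries. Without EA 2 and EA 5, 31 of the 34 genes were still below 0 and 7 reached an unadjusted p under 0.05 by edgeR. Without EA 3 or without EA 4 the number below 0 was 27, each with 7 at an unadjusted p under 0.05. Without control 1 it was 28, again with 7. Without control 2 or without control 3 the number at an unadjusted p under 0.05 was 6, with 32 and 28 below 0. Over all genes tested, 2085 reached that level in either direction with all libraries. The number was 2324 without EA 3, 2037 without EA 4 and 1322 without EA 2 and EA 5. It was 2564 without control 1, 1706 without control 2 and 1676 without control 3. Leaving out both EA 3 and control 1, a setting chosen after seeing the data, left 23 of 34 below 0.

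**Figure D1:**
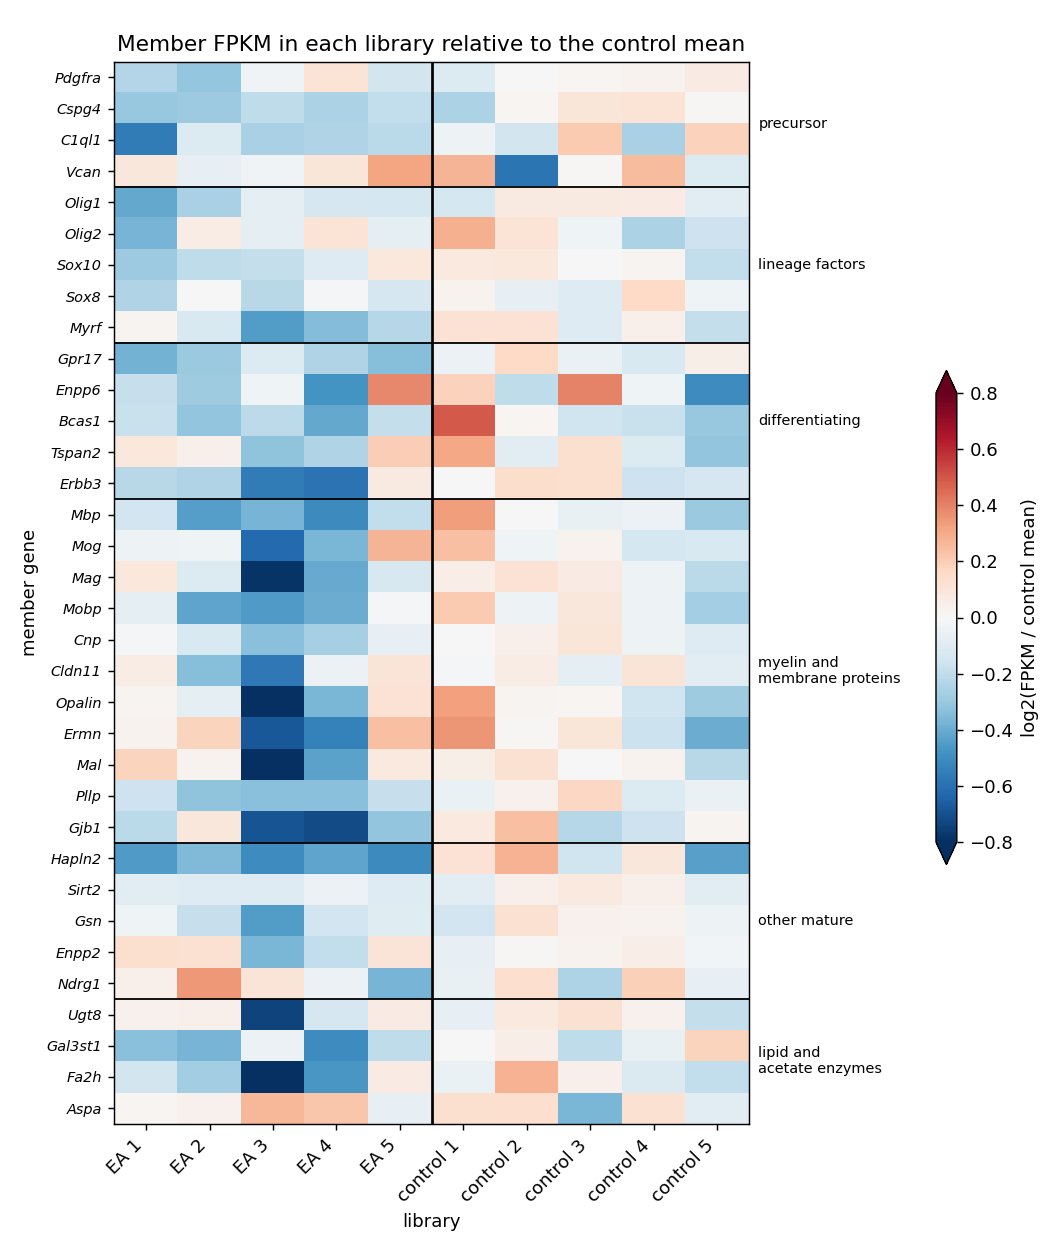
Each row is 1 of the 34 genes, sorted by stage, each column 1 library with EA left of control, and the colour is the log2 ratio of the library's FPKM to the control mean, clipped at the ends of the scale. EA 3 has 32 of 34 genes below the control mean and EA 4 has 30, while control 1 has 14 and control 5 has 28.

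The promoters of Hapln2 and Pllp are printed because these are the gene called by DESeq2 and the gene whose groups did not overlap. RefSeq promoters of the GRCr8 build, from 250 bases before to 50 after the start, were matched by symbol for 23 of the 34 genes. The deposited table uses the build Rnor_6.0, so positions given here in GRCr8 apply to these sequences only. Both strands of each window were searched for ACAAAG, the core bound by SOX factors, for CAGCTG, an E-box read by basic helix-loop-helix factors (a form of the general E-box CANNTG), and for CTGGCAC or CTGGTAC, a core used here for Myrf. Capitals mark the matches to these cores in the promoters of Hapln2 and Pllp, and every sequence reads 5′ to 3′ along the gene.
Hapln2 (chr2:175794389-175794688, minus strand): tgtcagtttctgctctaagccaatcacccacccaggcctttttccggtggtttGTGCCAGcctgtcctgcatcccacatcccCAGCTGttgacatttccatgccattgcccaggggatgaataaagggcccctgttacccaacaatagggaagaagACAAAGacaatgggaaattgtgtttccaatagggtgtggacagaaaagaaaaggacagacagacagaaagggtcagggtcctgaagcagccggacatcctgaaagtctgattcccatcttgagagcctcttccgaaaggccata
Pllp (chr19:10320830-10321129, plus strand): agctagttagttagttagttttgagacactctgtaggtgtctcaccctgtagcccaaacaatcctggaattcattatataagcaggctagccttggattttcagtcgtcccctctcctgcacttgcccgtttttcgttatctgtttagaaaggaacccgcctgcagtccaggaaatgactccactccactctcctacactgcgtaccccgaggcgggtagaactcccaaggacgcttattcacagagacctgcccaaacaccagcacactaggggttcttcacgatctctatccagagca

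Hapln2 held 1 match to each of the 3 cores, 197 (Myrf), 168 (E-box) and 94 (SOX) bases before the start. Pllp held none of the 3, and its only general E-box lay 131 bases before the start. Over the 23 promoters, 8 (34.8%) held the Myrf core, against 6.78% of 33469 rat promoters of the same length. The SOX core was present in 6 (26.1%), against 18.8% of all promoters, and the CAGCTG form of the E-box in 5 (21.7%), against 15.1%. CANNTG was in 17 (73.9%), against 72.1%. A match is a string of letters and not a shown binding site. The windows around the Myrf core in the other 7 promoters are given because this core had the largest gap to its background share among the 4 motifs searched. In these windows capitals mark the Myrf core alone, and matches to the other motifs, such as CAGCTG for Cnp and Enpp6, are not marked.
Cldn11 (chr2:114149643-114149669, minus strand): tccacaccctGTACCAGagcctgaccc
Cnp (chr10:86011370-86011396, plus strand): cagctgcttcCTGGCACccaggtttcg
Enpp6 (chr16:52026691-52026717, minus strand): gggcacagctGTGCCAGctcactccag
Mag (chr1:95291122-95291148, minus strand): caggcggcccCTGGCACccagggggca
Mal (chr3:135341533-135341559, minus strand): ttttagggctGTGCCAGaggtgattca
Olig2 (chr11:43961541-43961567, plus strand): gaggaggcgtGTGCCAGgccgggcggg
Opalin (chr1:249858191-249858217, minus strand): cagacctacaGTGCCAGtgagagagaa

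The 8 genes with the Myrf core spanned log2 fold changes of -0.42 for Hapln2 to -0.04 for Olig2. They included genes of wide spread in the EA group, such as Opalin and Mal, and genes of narrow spread, such as Hapln2. Cspg4, Gpr17, Fa2h and Pllp, each the gene of lowest p in its stage, had none of the SOX, CAGCTG and Myrf matches. They were not the only ones, since Pdgfra, Vcan, Tspan2 and Gsn, among others, also had none.

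Of the precursor genes 3 of 4 had estimates below 0, with a median log2 fold change of -0.16. Cspg4 (ENSRNOG00000017208, Rnor_6.0 chr8:61532465-61567510, plus strand) encodes the NG2 proteoglycan of the precursor surface and is also made by pericytes. It measured 3.92, 3.95, 4.19, 4.05 and 4.22 FPKM in EA libraries 1 to 5, against 4.05, 4.87, 5.16, 5.20 and 4.87 FPKM in control libraries 1 to 5. The EA libraries lay within a narrow band, and only control 1 reached into it. The log2 fold change was -0.22 (SE 0.06, edgeR adjusted p = 0.200, DESeq2 adjusted p = 0.0816). Without EA 3 and control 1 its log2 fold change was -0.30 and it was called by edgeR at an adjusted p of 0.047, while over the 22 alternatives the adjusted p spanned 0.047 to 0.525.

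C1ql1, a secreted C1q-like protein made by precursors, measured 6.79, 9.27, 8.35, 8.49 and 8.61 FPKM in EA libraries, against 9.72, 9.02, 11.6, 8.38 and 11.4 FPKM in control libraries. The groups overlapped through controls 2 and 4, and the log2 fold change was -0.25 (SE 0.12, edgeR adjusted p = 0.382). Pdgfra, the growth factor receptor that keeps precursors dividing, measured 16.5, 15.7, 19.0, 20.9 and 17.5 FPKM in EA libraries, against 18.0, 19.4, 19.6, 19.8 and 20.3 FPKM in control libraries. EA 4 was the highest of the 10 libraries and EA 2 the lowest, so the EA group enclosed the control group, with a log2 fold change of -0.09 (SE 0.07, edgeR adjusted p = 0.621). Vcan, the matrix proteoglycan versican, averaged 3.39 ± 0.363 FPKM in the EA group and 3.19 ± 0.703 FPKM in the control group (SD, n = 5 each), and its estimate was above 0.

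Lineage transcription factors were all 5 below 0, with a median log2 fold change of -0.11. Olig1 is a basic helix-loop-helix factor of the lineage. It measured 28.4, 31.5, 35.9, 34.3 and 34.1 FPKM in EA libraries, against 34.2, 39.6, 39.6, 39.5 and 35.6 FPKM in control libraries. Control 1 lay among the EA libraries and EA 3 lay just above control 5, and the log2 fold change was -0.17 (SE 0.07, edgeR adjusted p = 0.303). Its relative Olig2, which specifies the lineage, measured 7.16, 9.66, 8.80, 10.0 and 8.77 FPKM in EA libraries, against 11.3, 10.0, 9.02, 7.75 and 8.23 FPKM in control libraries. Those ranges overlapped almost wholly, and the log2 fold change was -0.04 (SE 0.12, edgeR adjusted p = 0.922), with the sign turning to 0.03 without EA 1 and to 0.05 without control 1.

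Myrf, the membrane-bound factor that switches on myelin genes, measured 9.83, 8.90, 7.12, 7.63 and 8.28 FPKM in EA libraries, against 10.5, 10.5, 9.02, 9.97 and 8.49 FPKM in control libraries. EA 3 and EA 4 were the lowest of the 10, and the log2 fold change was -0.19 (SE 0.09, edgeR adjusted p = 0.355). Sox10, which drives myelin genes with Myrf, measured 7.10, 7.55, 7.61, 8.08 and 9.21 FPKM in EA libraries, against 9.19, 9.20, 8.69, 8.82 and 7.58 FPKM in control libraries. EA 5 was the highest value of all and control 5 lay among the low EA libraries, giving a log2 fold change of -0.11 (SE 0.08, edgeR adjusted p = 0.557). Sox8, a close relative of Sox10, averaged 7.41 ± 0.577 FPKM in the EA group and 8.04 ± 0.592 FPKM in the control group (SD, n = 5 each).

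Genes of differentiating oligodendrocytes were all 5 below 0 with a median log2 fold change of -0.24. Gpr17, a receptor of committed precursors that restrains their maturation, measured 10.9, 11.6, 13.2, 11.99 and 11.2 FPKM in EA libraries, against 13.8, 15.9, 13.7, 13.0 and 14.7 FPKM in control libraries. Only EA 3 reached the lowest control library, and the log2 fold change was -0.25 (SE 0.09, edgeR adjusted p = 0.257). Gpr17 overlaps Lims2 on the opposite strand over 1020 bases, and the use of strand in counting is not stated, so reads of the 2 genes may not be separate. Lims2 had a mean of 5.00 FPKM.

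Erbb3, a receptor for neuregulins, measured 2.59, 2.55, 2.05, 2.00 and 3.18 FPKM in EA libraries, against 3.03, 3.33, 3.30, 2.69 and 2.76 FPKM in control libraries. EA 3 and EA 4 were the lowest and EA 5 lay among the controls, with a log2 fold change of -0.27 (SE 0.12, edgeR adjusted p = 0.363). Bcas1, found in oligodendrocytes that have just begun to myelinate, measured 43.3, 39.4, 42.4, 36.9 and 43.0 FPKM in EA libraries, against 68.8, 49.5, 43.8, 43.3 and 39.7 FPKM in control libraries. Its log2 fold change of -0.24 (SE 0.13, edgeR adjusted p = 0.461) was -0.07 without control 1, which stood well above the rest. Enpp6, a choline phosphodiesterase of newly forming oligodendrocytes, lay between 1.03 and 1.87 FPKM in the EA group and between 1.01 and 1.885 FPKM in the control group. Tspan2, a tetraspanin of the same stage, averaged 15.5 ± 2.32 FPKM in the EA group and 15.8 ± 2.65 FPKM in the control group (SD, n = 5 each). Without one library the signs of both turned: Enpp6 without EA 4 or control 3, and Tspan2 without EA 3, EA 4, control 1 or control 3.

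**Figure D2:**
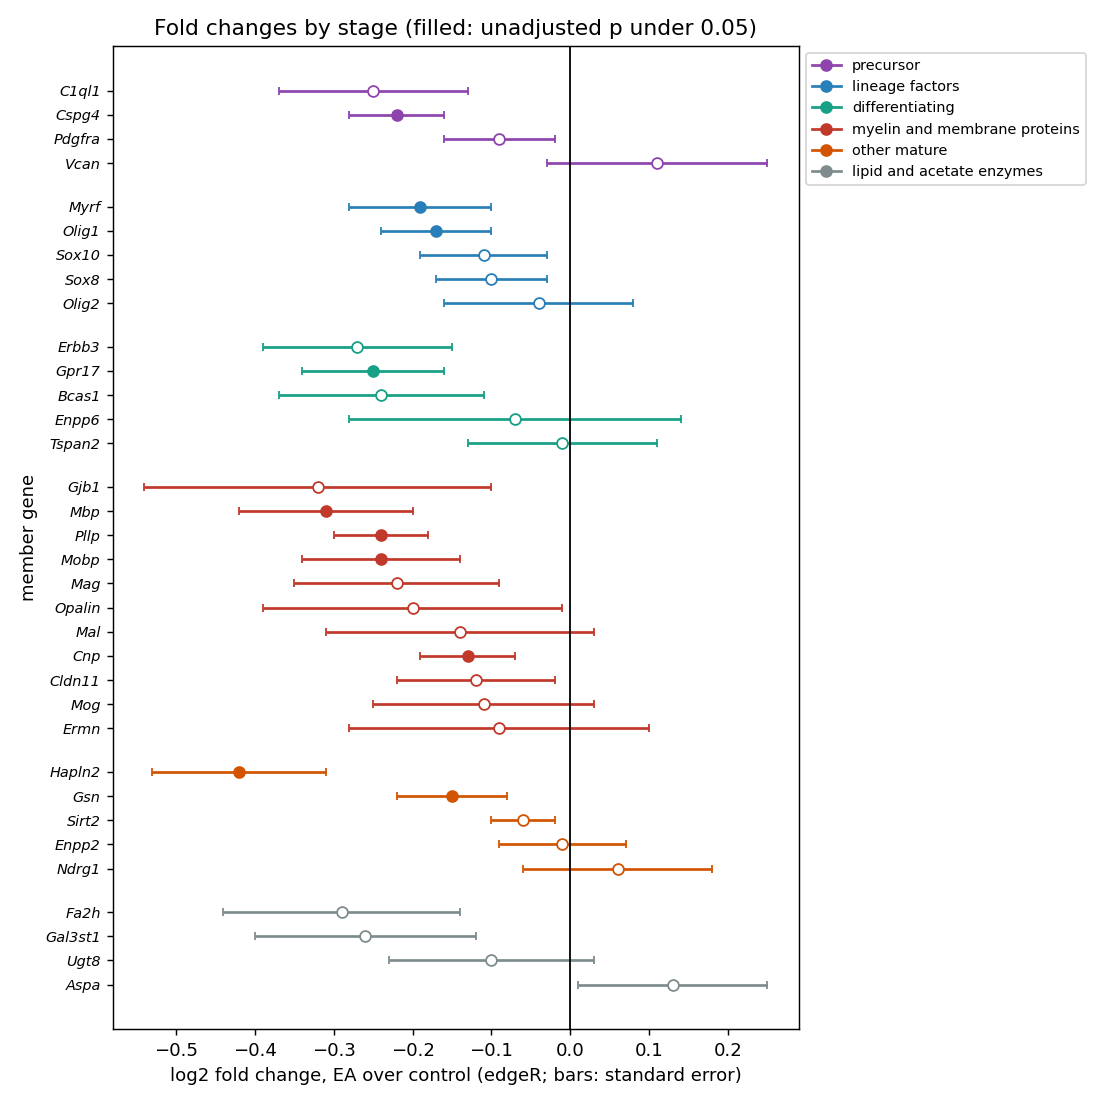
Points are edgeR log2 fold changes of EA over control for the 34 genes by stage, and bars are 1 standard error to each side. Filled points, the 10 genes at an unadjusted p under 0.05, all lie left of 0, and 3 genes, Vcan, Ndrg1 and Aspa, lie right of it.

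Myelin and membrane proteins were all 11 below 0, at a median log2 fold change of -0.20, with 4 at an unadjusted p under 0.05. Pllp, plasmolipin (ENSRNOG00000016558, Rnor_6.0 chr19:10731855-10752641, plus strand), is a small proteolipid with a MARVEL domain like Mal. Its level was 21.9, 19.7, 19.5, 19.5 and 21.7 FPKM in EA libraries, against 23.7, 25.1, 27.6, 22.8 and 23.7 FPKM in control libraries. The groups did not overlap, since even the lowest control library, control 4, lay above EA 1, the highest of the EA libraries. The log2 fold change was -0.24 (SE 0.06, edgeR adjusted p = 0.183, DESeq2 adjusted p = 0.0567).

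Mbp (ENSRNOG00000016516, Rnor_6.0 chr18:79326738-79437310, plus strand) encodes myelin basic protein, which holds the cytoplasmic faces of the sheath together, and was by far the most abundant of the 34 genes per length. It measured 693.0, 569, 596, 539.9 and 671 FPKM in EA libraries, against 969.6, 771, 739.0, 744 and 627 FPKM in control libraries. Control 5 lay within the EA range and control 1 stood above all others. The log2 fold change was -0.31 (SE 0.11, edgeR adjusted p = 0.262) and was -0.20 without control 1. Mbp made up 48.0% to 52.4% of the FPKM total over the 34 genes in EA libraries and 50.6% to 57.8% in the control libraries.

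Mobp, a small basic protein of compact myelin, measured 51.6, 40.5, 39.7, 41.3 and 53.7 FPKM in EA libraries, against 62.9, 52.8, 57.9, 52.8 and 45.03 FPKM in control libraries. Of the EA libraries, 2, 3 and 4 were below every control, and the log2 fold change was -0.24 (SE 0.10, edgeR adjusted p = 0.340). Mog, the glycoprotein of the outermost myelin surface, measured 21.5, 21.5, 14.3, 17.1 and 26.7 FPKM in EA libraries, against 26.0, 21.5, 22.4, 20.01 and 20.2 FPKM in control libraries. EA 5 was the highest of the 10 and EA 3 and EA 4 the lowest, with a log2 fold change of -0.11 (SE 0.14, edgeR adjusted p = 0.785). Mog overlaps Zfp57 by 117 bases on the opposite strand, and Zfp57 had a mean of 4.86 FPKM. Cnp, the cyclic nucleotide phosphodiesterase of non-compact myelin, averaged 65.9 ± 6.11 FPKM in the EA group and 73.4 ± 3.90 FPKM in the control group (SD, n = 5 each), at a log2 fold change of -0.13 (SE 0.06, edgeR adjusted p = 0.363).

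The adhesion protein Mag, the claudin Cldn11 and the connexin Gjb1 had log2 fold changes of -0.22, -0.12 and -0.32. Gjb1 lay near the filter on low values of 0.5 FPKM in at least 5 libraries. It reached 0.5 FPKM in 1 EA and 4 control libraries, so it was tested largely through the group in which it was higher. The other 33 genes were above the filter in all 10 libraries, and of them 30 were below 0 with a median of -0.14.

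**Figure D3:**
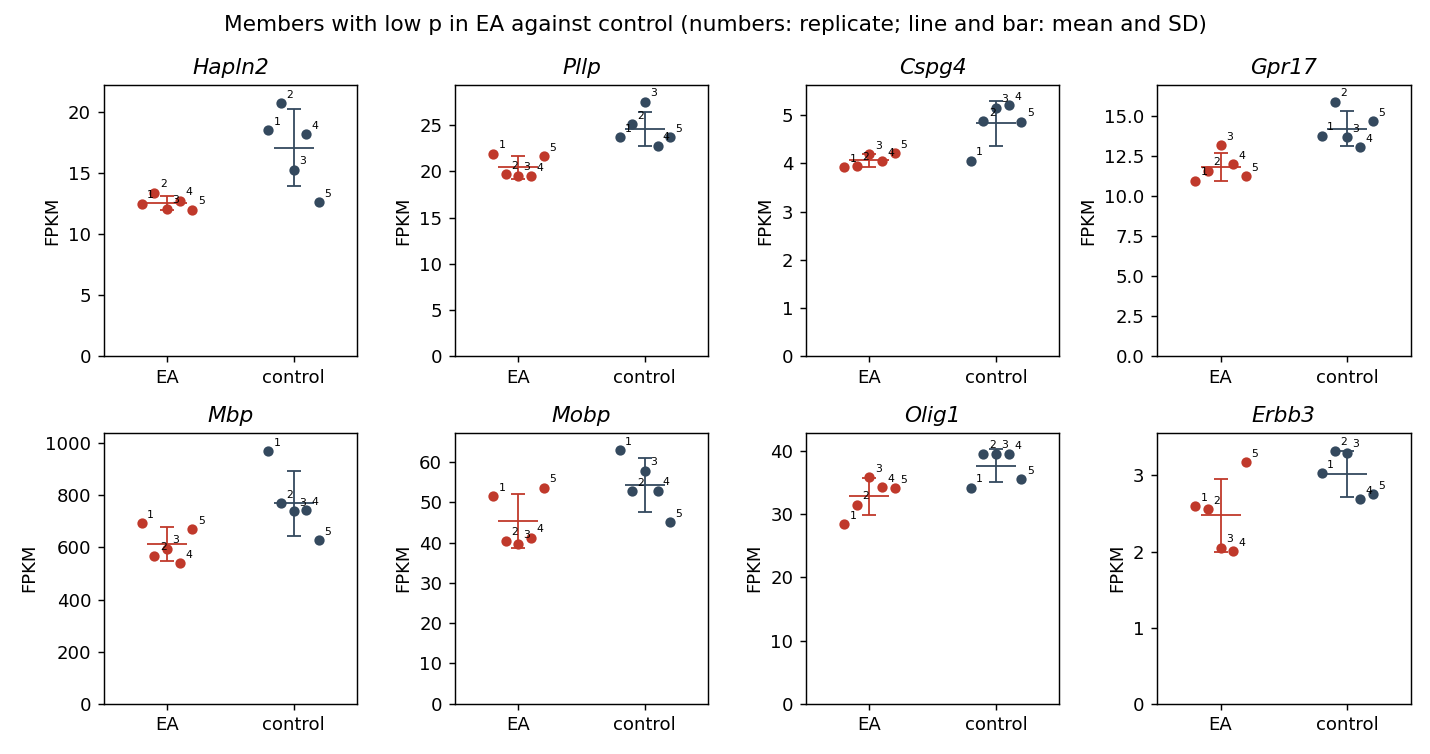
FPKM of 8 genes picked among those with low edgeR p, with 1 numbered point per library, EA left of control, and a line and bar for the mean and SD. Erbb3 is shown though not among the 10 genes at an unadjusted p under 0.05, while Myrf, Cnp and Gsn of those 10 are not. Pllp is the gene whose groups do not overlap, and Hapln2 is tight in the EA group, at 11.99 to 13.4 FPKM.

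Among other genes of mature oligodendrocytes 4 of 5 were below 0, with a median log2 fold change of -0.06. Hapln2 (ENSRNOG00000018870, Rnor_6.0 chr2:187396349-187401786, minus strand) encodes a link protein of the matrix at the nodes of Ranvier and had the largest fold change of the 34. Its level was 12.5, 13.4, 12.1, 12.7 and 11.99 FPKM in EA libraries, against 18.5, 20.7, 15.2, 18.2 and 12.6 FPKM in control libraries. Control 5 lay within the narrow EA range, and the other 4 controls lay above it. The log2 fold change was -0.42 (SE 0.11), lower by DESeq2 at an adjusted p of 0.0279 and not called by edgeR at an adjusted p of 0.183. Over the 22 alternatives the estimate spanned -0.51 to -0.35 and the adjusted p spanned 0.0279 to 0.501.

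Gsn, gelsolin, which severs actin filaments, measured 17.8, 16, 13.3, 16.4 and 16.97 FPKM in EA libraries, against 16.4, 19.7, 18.6, 18.6 and 17.6 FPKM in control libraries. EA 3 was the lowest and controls 1 and 5 lay within the EA range, with a log2 fold change of -0.15 (SE 0.07, edgeR adjusted p = 0.331). Sirt2, a tubulin deacetylase abundant in myelin, measured 71.7, 71.1, 71.2, 73.9 and 71.1 FPKM in EA libraries, against 71.97, 78.4, 80.7, 78.6 and 72.01 FPKM in control libraries. The EA libraries were within 1.04-fold of each other, the tightest spread of the 34 genes, and EA 4 lay above controls 1 and 5. The log2 fold change was -0.06 (SE 0.04, edgeR adjusted p = 0.513). Enpp2, autotaxin, which makes lysophosphatidic acid, averaged 16.04 ± 2.404 FPKM in the EA group and 16.4 ± 0.534 FPKM in the control group (SD, n = 5 each). Enpp2 is also abundant in choroid plexus, and 6 of 7 listed choroid plexus markers (Ttr, Kl, Folr1, Clic6, Otx2 and Sostdc1) had a mean under 0.5 FPKM here. The seventh, Kcne2, averaged 1.54 ± 0.415 FPKM in the EA group and 1.47 ± 0.387 FPKM in the control group (SD, n = 5 each), and the 7 summed to 1.68 to 2.21 FPKM in the EA group and 1.15 to 2.67 FPKM in the control group. The part of choroid plexus in the level of Enpp2 was not tested. Ndrg1, a cytoplasmic protein of mature oligodendrocytes that also responds to low oxygen, had a log2 fold change of 0.06.

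Enzymes of myelin lipid and acetate metabolism were below 0 in 3 of 4 cases, at a median log2 fold change of -0.18, none at an unadjusted p under 0.05. Fa2h, which hydroxylates the fatty acids of myelin galactolipids, measured 4.27, 3.89, 2.52, 3.41 and 4.94 FPKM in EA libraries, against 4.56, 5.73, 4.86, 4.35 and 4.11 FPKM in control libraries. EA 3 was lowest by a wide margin and EA 5 exceeded 4 of the controls, with a log2 fold change of -0.29 (SE 0.15, edgeR adjusted p = 0.432). Gal3st1, which sulphates galactosylceramide to sulfatide, measured 1.37, 1.33, 1.67, 1.22 and 1.501 FPKM in EA libraries, against 1.73, 1.79, 1.5, 1.65 and 1.95 FPKM in control libraries. Here EA 3 was the highest EA library and controls 3 and 4 lay within the EA range, and the log2 fold change was -0.26 (SE 0.14, edgeR adjusted p = 0.455).

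Aspa, aspartoacylase, releases acetate for lipid synthesis from N-acetylaspartate. It measured 4.51, 4.56, 5.37, 5.19 and 4.27 FPKM in EA libraries, against 4.87, 4.90, 3.45, 4.85 and 4.20 FPKM in control libraries. EA 3 and EA 4 were the highest of the 10, and the log2 fold change was 0.13 (SE 0.12, edgeR adjusted p = 0.682), above 0 in every alternative. Ugt8, which makes galactosylceramide, averaged 7.35 ± 1.504 FPKM in the EA group and 7.98 ± 0.673 FPKM in the control group (SD, n = 5 each). Its EA libraries other than EA 3 lay between 7.26 and 8.34 FPKM and EA 3 had 4.77 FPKM.

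The genes differed in how far the EA libraries spread. Opalin, a paranodal glycoprotein of mature oligodendrocytes, ranged over 2.28-fold in the EA group, 5.57 to 12.7 FPKM, and over 1.53-fold in the control group, 9.60 to 14.7 FPKM. Mal, a proteolipid of the myelin membrane, ranged over 2.17-fold in the EA group, 15.7 to 34.0 FPKM, and over 1.27-fold in the control group, 25.8 to 32.8 FPKM. The actin-binding protein Ermn, Mog and Mag ranged over 1.89, 1.86 and 1.83-fold in the EA group. Ermn ranged over 1.68-fold and Mag over 1.26-fold in the control group. In each of these 5 genes EA 3 had the lowest value of all 10 libraries. Hapln2 and Pllp ranged over 1.11 and 1.13-fold in the EA group and over 1.64 and 1.21-fold in the control group.

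**Figure D4:**
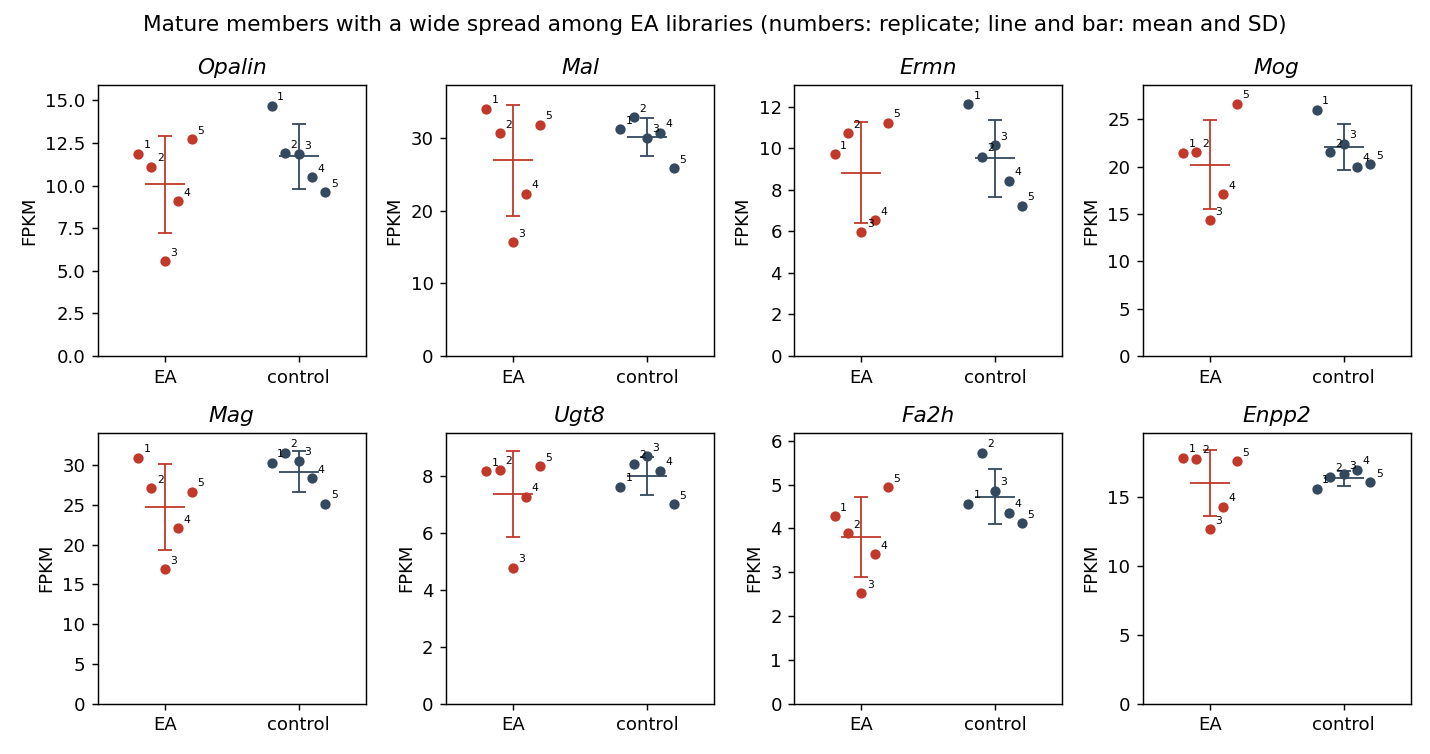
FPKM of 8 mature genes in each library, with replicate numbers beside the points, EA left of control, and a line and bar for the mean and SD. EA 3 is the lowest EA library in all 8, while the highest EA library reaches into or above the control range in each.

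By library, EA 3 was the lowest of all 10 in 14 of the 34 genes, among them 8 of the 11 myelin and membrane proteins. Its median log2 ratio to the control mean was -0.33 over the 34 genes, -0.62 over the myelin and membrane proteins and -0.12 over the precursor genes. EA 4 had -0.26 over the 34 and -0.40 over the myelin and membrane proteins. The median over precursor genes was -0.07 in EA 4, so both libraries lay lower in myelin genes than in precursor genes. The median over the 34 was -0.12 in EA 1, -0.12 in EA 2 and -0.09 in EA 5, and in these 3 libraries the myelin and membrane proteins had -0.01, -0.11 and -0.02. The lowest control library, control 5, had -0.11 over the 34 genes, 0.04 over precursor genes and -0.22 over the myelin and membrane proteins. Control 5 thus also lay lower in myelin genes than in precursor genes. EA 1 had its lowest levels elsewhere, with -0.27 over precursor genes and -0.29 over the lineage factors. EA 3 was also the lowest of the 10 libraries in some neuron markers, at 704.3 FPKM for Snap25 and 32.76 FPKM for Nefm. The control libraries held 838.0 to 937.9 FPKM and 54.15 to 71.23 FPKM of these. In other neuron markers EA 3 was not the lowest, and its 1140.5 FPKM of Camk2a lay within the control range of 1045.4 to 1200.0 FPKM. EA 3 also had the lowest depth and the highest mitochondrial share, and the part of either in these values was not tested. Control 1 had the next highest mitochondrial share, 45.1%, and was the highest of all 10 libraries in 8 of the 34 genes.

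Summed by stage, the mean level of the EA group was below that of the control group for every stage, and the 2 groups overlapped in each. Lower sums were not limited to the lineage. The median sum of neuron markers was 2918.7 FPKM in the EA group and 3145.1 FPKM in the control group. For astrocyte markers it was 2632.6 and 2801.8 FPKM. Deep-layer and striatal genes were among those that went the other way, at 35.63 against 34.56 FPKM and 122.6 against 121.5 FPKM. Precursor genes summed to 33.7 ± 2.45 FPKM in the EA group and 37.5 ± 2.01 FPKM in the control group (SD, n = 5 each), a log2 ratio of -0.15. Lineage factors summed to 65.4 ± 3.53 FPKM in the EA group and 73.4 ± 3.47 FPKM in the control group, a log2 ratio of -0.17. The overlap for the lineage factors was through control 5 alone, at 67.7 FPKM, against at most 67.9 FPKM in the EA group.

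The sum for differentiating genes was 72.04 ± 4.57 FPKM in the EA group and 83.5 ± 14.1 FPKM in the control group, a log2 ratio of -0.21 that was -0.11 without control 1. Myelin and membrane proteins summed to 867.8 ± 98.3 FPKM in the EA group and 1060.0 ± 141 FPKM in the control group, a log2 ratio of -0.29. Mbp carries most of that sum, and without it the log2 ratio was -0.19, a setting chosen after seeing the data. Other mature genes had a log2 ratio of -0.09 and the lipid and acetate enzymes -0.12, the second of which was -0.06 without EA 3. No test was run on these sums, since their members were chosen with results of these data known.

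**Figure D5:**
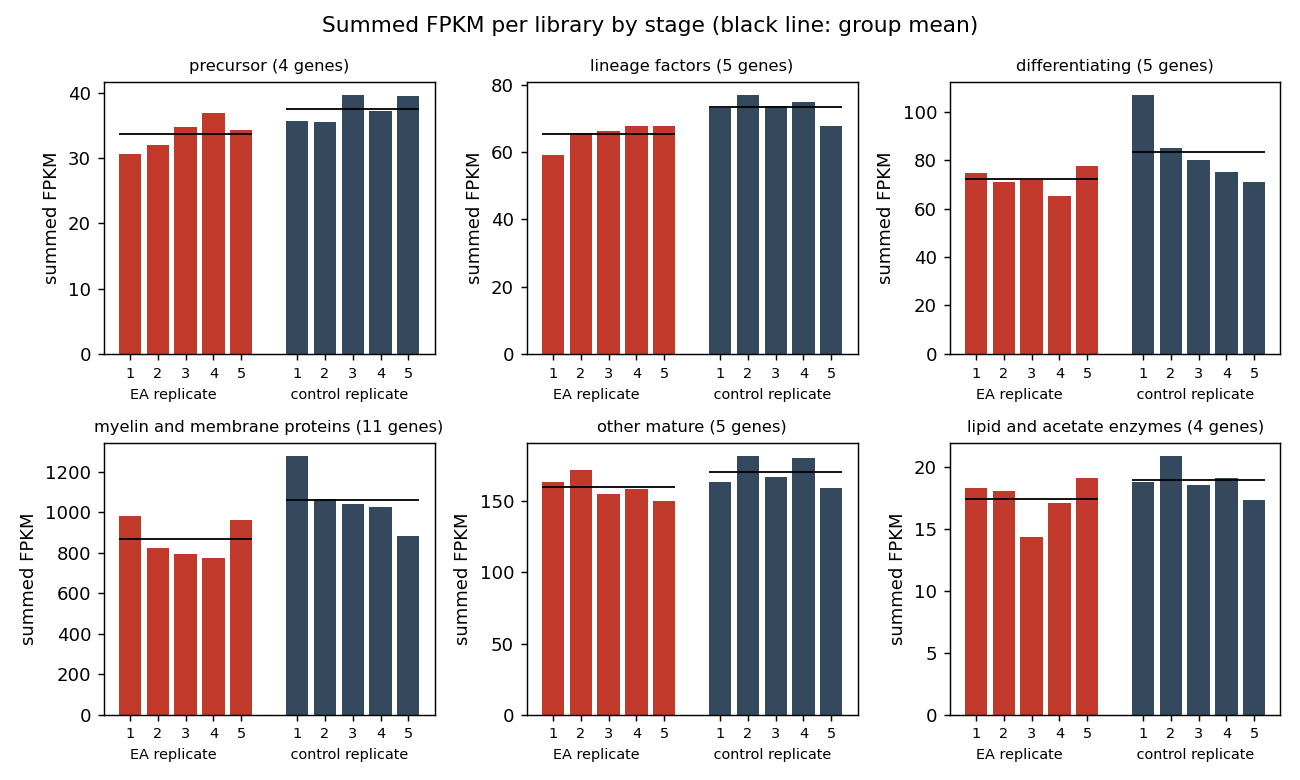
Summed FPKM of each stage in each library, with 1 bar per library, EA left of control, and a black line for the group mean. The groups overlap in all 6 stages, and control 1 is the highest library for the differentiating genes and for the myelin and membrane proteins.

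Other genes of the lineage, from lists written beside the 34, were set against them by stage. Among 14 further precursor genes 6 were below 0, at a median log2 fold change of 0.01, none at an unadjusted p under 0.05. Among 12 further differentiating genes 7 were below 0, with a median of -0.03. At an unadjusted p under 0.05, 1 was lower, against 7.15% of all genes tested, and 1 higher, against 6.59%. The higher 1 was Fyn (log2 fold change 0.14, edgeR adjusted p = 0.337). The lower 1 was Gpr37l1, a receptor also made by astrocytes. It averaged 83.7 ± 3.66 FPKM in the EA group and 98.1 ± 2.49 FPKM in the control group (SD, n = 5 each, log2 fold change -0.20, edgeR adjusted p = 0.174). Its groups did not overlap, which held for 1 of the 12, against 2.25% of all genes tested. Among 49 further mature genes 43 were below 0, with a median of -0.12, 6 at an unadjusted p under 0.05 and lower, against 7.15% of all genes tested, and 1 higher, against 6.59%. In 3 of these 49, Plekhb1, Kif5a and Phldb1, every EA library lay below every control library, against 2.25% of all genes tested. Phldb1 averaged 17.4 ± 0.715 FPKM in the EA group and 19.95 ± 1.21 FPKM in the control group (SD, n = 5 each, log2 fold change -0.18, edgeR adjusted p = 0.183). Kif5a, a kinesin that neurons also make in quantity, averaged 549.8 ± 24.1 FPKM in the EA group and 644.4 ± 27.9 FPKM in the control group (SD, n = 5 each, log2 fold change -0.21, edgeR adjusted p = 0.183).

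Signals that act on the lineage were mixed. Of 18 ligands and receptors 11 were below 0, with a median of -0.02, and the lowest p belonged to Notch1, a receptor that holds precursors back, at 6.81 ± 0.644 FPKM in the EA group and 8.15 ± 0.596 FPKM in the control group (SD, n = 5 each, log2 fold change -0.23, edgeR adjusted p = 0.233). Of 11 regulators of maturation 7 were below 0, with a median of -0.07. Among the 7 was Tmem98, which binds Myrf and limits its cleavage, at a log2 fold change of -0.39 (edgeR adjusted p = 0.290). Of 12 genes of the node and paranode 6 were below 0 and 6 above, with a median of -0.00. At an unadjusted p under 0.05, 2 of them were lower, against 7.15% of all genes tested, and 0 higher, against 6.59%. Cntnap1, the axonal partner of the paranodal myelin loops, measured 91.4, 93.1, 89.6, 85.5 and 83.6 FPKM in EA libraries, against 102, 104, 106, 107 and 100.1 FPKM in control libraries. Its groups did not overlap (log2 fold change -0.20, SE 0.04, edgeR adjusted p = 0.172), which held for 1 of the 12, against 2.25% of all genes tested.

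Markers of other cells give the setting of these values. Of 12 endothelial markers 11 were below 0, with a median of -0.23, and their sum ranged over 119.7 to 143 FPKM in the EA group and 127 to 154 FPKM in the control group. Of these 12, 4 were lower at an unadjusted p under 0.05, against 7.15% of all genes tested, 3 were called lower by DESeq2, against 0.600%, and 3 had no overlap between groups, against 2.25%. The last 3 were Sox18 (log2 fold change -0.98), Tie1 (-0.46) and Erg (-0.50), endothelial transcription factors and a receptor, with edgeR adjusted p of 0.106, 0.172 and 0.183. All 7 pericyte markers were below 0, with a median of -0.21 and sums of 132.0 to 147 FPKM in the EA group and 140.2 to 162 FPKM in the control group. Cspg4 is shared with pericytes and Pdgfra with fibroblasts, and the part of these cells in their values was not tested. Fibroblast and meningeal markers were below 0 in 6 of 8 cases, with sums of 29.6 to 90.6 FPKM in the EA group and 39.9 to 92.3 FPKM in the control group.

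Of the blood markers tested, the haemoglobin genes Hba-a1, Hba-a2 and Hbb, all 3 were below 0, with a median of -1.06. At an unadjusted p under 0.05 by edgeR 2 were lower, against 7.15% of all genes tested. Controls 1 and 2 were the highest libraries in all 3, so these genes moved together. Hbb measured 2.31, 5.54, 2.20, 5.88 and 2.68 FPKM in EA libraries, against 14.6, 16.4, 6.72, 3.36 and 4.82 FPKM in control libraries. Controls 1 and 2 held the most of it and the groups overlapped (log2 fold change -1.28, SE 0.46, edgeR adjusted p = 0.261). The part of blood or of vessel cells in the values of the 34 genes was not tested.

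Neuron markers had a median log2 fold change of 0.01 (5 of 11 below 0), astrocyte markers -0.04 (6 of 10), and microglia markers -0.03 (5 of 9). At an unadjusted p under 0.05 by edgeR, 2 neuron markers were higher, against 6.59% of all genes tested, and 0 lower, against 7.15%. At that level 1 astrocyte marker was lower and 0 were higher. In 2 of the 10 astrocyte markers every EA library lay below every control library, against 2.25% of all genes tested. No microglia marker met either measure. Genes of the deep cortical layers had a median of -0.02 (4 of 7 below 0) and genes of the upper layers -0.05 (3 of 5). Of the upper-layer genes 1 was higher at an unadjusted p under 0.05, against 6.59% of all genes tested. Striatal genes, a sign of tissue from below the cortex, had a median of 0.08 (3 of 7 below 0). The amount of white matter in each sample was not measured apart from the myelin genes themselves, so it cannot be told apart from their expression.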

How the data were processed

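The study sequenced stranded paired-end poly(A) libraries of cerebral cortex. Reads were trimmed by the authors (Cutadapt 1.9), mapped to Rnor_6.0 (HISAT2 2.0.4), and assembled and merged (StringTie 1.3.4d, gffcompare 0.9.8). The submitters' processing notes give HISAT2 as 2.0 and StringTie as 1.3.0, and add Bowtie 0.12.2. The deposited FPKM values come from ballgown, with 0.0001 in place of 0. Beside them the authors deposited whole-number estimated counts, without a statement of how these were derived.

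The 15169 genes that reached 0.5 FPKM in 5 or more of the 10 libraries were tested on the counts with the quasi-likelihood F test of edgeR 4.0.16, after TMM scaling and with Benjamini-Hochberg adjustment. Calls needed an adjusted p under 0.05 together with more than a 1.2-fold difference, as in the study. Standard errors are the log2 fold change divided by the root of F. DESeq2 1.42.0 and limma 3.58.1 on log2(FPKM + 1) and log2(FPKM + 0.1) were alternatives, as were RLE scaling, library totals, other filters, summed rows of a symbol, a robust dispersion, a replicate block and leaving libraries out. R 4.3.3, Python 3.11.15, pandas 2.3.3 and matplotlib 3.10.9 were used, and the fits were tested on simulated data.

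All 34 genes may be named. Values of every library are given for those called by edgeR or DESeq2, those whose groups do not overlap, the 3 of lowest p in each stage, and Mbp, Mog, Olig2 and Pdgfra. From each other list at most the 3 genes of lowest p are named, with exceptions made after their values were seen. These are the choroid plexus markers, all named beside Enpp2, and Snap25, Nefm and Camk2a, named for EA 3. The genes and lists were chosen with earlier results of these data known. Depth gives 30 or more counts per library for each of the 34 genes, so sampling error matters mainly for Gjb1, with 30 to 66 counts in the EA group and 49 to 73 in the control group.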

Additional observations from a re-analysis of the deposited data

Results flagged for a closer look

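Of 86 groups of 5 library values examined, 2 held a library far from the other 4, where chance gives about 1 in 20. Sirt2 was at 73.88 FPKM in EA 4, against 71.07 to 71.74 FPKM in the other EA libraries, a gap of 0.763 of the group's range. The lineage transcription factors summed to 59.31 FPKM in EA 1, against 65.66 to 67.93 FPKM in the other EA libraries, a gap of 0.737 of the range.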

How the results depend on the processing

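Of the 34 genes 23 kept the sign of their fold change under all 22 alternatives, and 26 of 748 gene and setting pairs turned sign. Leaving out EA 3 and control 1, chosen after seeing the data, turned Olig2 to 0.04, Tspan2 to 0.14, Mog to 0.06, Opalin to 0.05, Ermn to 0.13, Mal to 0.01, Enpp2 to 0.05 and Ugt8 to 0.01, and called Cspg4 and 41 of all genes by edgeR. Leaving out 1 library at a time gave log2 fold changes of -0.01 to 0.20 for Vcan, -0.10 to 0.05 for Olig2, -0.20 to 0.05 for Enpp6, -0.08 to 0.09 for Tspan2, -0.18 to 0.03 for Ermn, -0.05 to 0.06 for Enpp2, -0.03 to 0.15 for Ndrg1 and -0.14 to 0.02 for Ugt8. It gave 6 to 12 of the 34 genes at an unadjusted p under 0.05 and lower, 27 to 32 below 0, and 0 called. Of all genes tested it gave 1551 (without EA 5) to 2564 (without control 1) at that level, in either direction. Over all genes it gave 1 to 5 calls, with 5 without EA 3 and 1 without EA 5 or control 5, against 3 with all libraries.

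DESeq2 called 168 of all genes and 1 of the 34. Without EA 2 and EA 5, 1322 of all genes had an unadjusted p under 0.05, against 2085 with all libraries. Without EA 3 and control 1, also a setting with fewer samples, 2776 did. The cause of these shifts was not tested. Same-numbered EA and control libraries did not deviate together (correlations of -0.009 to 0.058 over 15169 genes, given as a description), so the numbers were not taken as pairs. With a replicate block edgeR called 0 of all genes, with 2073 at an unadjusted p under 0.05, and 9 of the 34 genes were lower at that level. Gjb1, at about 0.5 FPKM, is the gene whose value depth limits most.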
